A study of Mus musculus with 32 samples.

Results

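Transcripts of the proteasome were followed in mouse liver through every array probe whose gene symbol begins with Psm and a subunit letter from a to g followed by a number. On the female array version 67 probes matched, and 59 of them, for 43 of 45 gene symbols, had a detection p-value under 0.05 on at least 4 of 16 arrays and were kept. On the male version 57 of 64 probes, for 44 of 47 symbols, were kept. These stand among 12561 kept of 25697 probes, for 8711 genes, in females and 12173 kept of 24613, for 8840 genes, in males. In females 58 of the 59 kept probes were detected on all 16 arrays, and in males 52 of 57. Psmc3ip, a DNA recombination cofactor, and Psme3ip1, a binding partner of the activator subunit Psme3, matched the naming rule and are not subunits, so 56 female and 55 male probes report subunits, activators, inhibitor or assembly chaperones.

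The livers came from C57bl/6J OlaHsd mice aged 20 weeks. In gestation their mothers ate a low-protein diet labelled 9%, with 90 g of casein per kg, or a control diet labelled 18%. From an age of 6 weeks the offspring were kept for 14 weeks on a high-fat diet (36% fat by the labels) or on a control diet. In each sex this made 4 groups of 4 arrays, namely high-fat offspring of 9% mothers, control-diet offspring of 9% mothers, high-fat offspring of 18% mothers and control-diet offspring of 18% mothers. The 32 arrays are labelled as biological replicates. The question named in the title is how low maternal protein sets glucose and fatty acid metabolism of sons and daughters. Litters are not named in the labels, and siblings in a group would make the p-values too small.

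The proteasome is the protease that degrades proteins tagged with ubiquitin. Its barrel-shaped core is built from outer rings of alpha subunits (the Psma genes) and inner rings of beta subunits (the Psmb genes), of which Psmb5, Psmb6 and Psmb7 carry the catalytic sites. A regulatory particle caps the core: its base holds the ATPases (the Psmc genes) that unfold substrates, and its lid and scaffold (the Psmd genes) bind and remove ubiquitin. Interferon induces Psmb8, Psmb9 and Psmb10, which replace the catalytic subunits in the immunoproteasome and change the peptides made for antigen presentation. The transcription factor NFE2L1 is known to raise the subunit genes together when proteasome activity falls short.

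Whole-array measures set the scale of the values. Mean raw intensity per array was 300.0 to 410 in high-fat females of 9% mothers, against 366 to 461 in their control-diet counterparts, and 323 to 418 in high-fat females of 18% mothers, against 399 to 452 in theirs. In males of 9% mothers it was 221 to 275 with the high-fat diet, against 261 to 309 with the control diet, and in males of 18% mothers 170 to 306 with the high-fat diet, against 247 to 282 with the control diet. All levels below are log2 intensities after background correction and quantile normalisation within a sex, and changes are differences of these. A level of one probe cannot be set against that of another probe or of the other sex. Hepatocyte markers, 10 of 12 genes, were present throughout, with a summed log2 level of 17.2 to 17.4 in females and 16.4 to 16.6 in males. In females of 18% mothers this sum was 17.17 to 17.22 with the high-fat diet, wholly below the 17.26 to 17.44 of the control diet, and the stellate cell sum was 13.65 to 13.85, against 13.90 to 13.94. The bile duct cell (cholangiocyte) sum in the same females was 5.84 to 5.98, against 6.17 to 6.52. It rests on 2 of 6 genes, with 0 of its 2 probes detected on all 16 arrays. In females of 9% mothers the diets overlapped in each of these sums. In males of 9% mothers the stellate cell sum was 12.75 to 12.91 with the high-fat diet, against 12.92 to 13.08 with the control diet. Their lymphocyte and NK cell sum was 7.54 to 7.83, against 7.84 to 7.92, with 2 of its 6 probes detected on all 16 arrays. In males of 18% mothers the diets overlapped in these sums. The part of these markers in the results was not tested. In bulk liver a lower level can reflect fewer cells of a type or less RNA per cell, which cannot be told apart.

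Few proteasome transcripts passed the test for the high-fat diet in either sex, and most differences lay slightly above 0. Averaged over the maternal diets, 1 of 59 female member probes passed an adjusted p of 0.05 in limma, Psme4, which fell, against 8.85% of all kept probes called in either direction and 4.43% called lower, and 15 had an unadjusted p under 0.05, 25.4% against 25.6%. In males 1 of 57 passed, Psma4, which fell, against 1.98% of all probes called and 0.764% called lower, and 12 had an unadjusted p under 0.05, 21.1% against 16%. By direction, the 15 female ones were 8 higher, 13.6% against 12.3%, and 7 lower, 11.9% against 13.3%. The 12 male ones were 11 higher, 19.3% against 7.25%, and 1 lower, 1.75% against 8.79%. The median change was 0.06 over the female members and 0.10 over the male members, beside -0.01 and -0.00 over all kept probes. The change was above 0 for 43 of 59 female members, 72.9% against 48.7% of all probes, and for 41 of 57 male members, 71.9% against 49.7%. The 95% interval lay within 0.5 log2 units of 0 for 53 of 59 female members, 89.8% against 79.8% of all probes, and for 46 of 57 male members, 80.7% against 76.3%.

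Within each maternal diet no member passed. In females of 9% mothers limma called 0 of 59 members with the high-fat diet, against 4.42% of all probes, and 11 had an unadjusted p under 0.05, 18.6% against 21.7%. In females of 18% mothers it called 0 of 59, against 0.0637% of all probes, with 4 at an unadjusted p under 0.05, 6.78% against 12%. In males of 9% mothers it called 0 of 57, against 0.214% of all probes, with 7 at an unadjusted p under 0.05, 12.3% against 10.5%. In males of 18% mothers it called 0 of 57, against 0.591% of all probes, with 13 at an unadjusted p under 0.05, 22.8% against 14.7%. Of these, in the same order of groups, 7, 3, 6 and 10 were higher. That is 11.9%, 5.08%, 10.5% and 17.5%, against 10.6%, 5.72%, 5.42% and 7.12% of all probes. Lower were 4, 1, 1 and 3, which is 6.78%, 1.69%, 1.75% and 5.26%, against 11.1%, 6.25%, 5.1% and 7.56%. The 4 arrays per group limit the precision of these comparisons.

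Some members separated the diets array by array without passing the test. In females of 9% mothers every high-fat array lay above every control array for 5 of 59 members (Psma3, Psmb5, Psmd9, Psmd11 and Psmg3), against 5.33% of all probes, and below for 1 (Psma4), against 5.71%. In females of 18% mothers this held upward for 1 (Psmb8), against 3.06%, and downward for 1 (Psmd12), against 4.1%. In males of 9% mothers it held upward for 3 of 57 (Psma7, Psmb2 and Psmd13), against 3.77%, and downward for 1 (Psma4), against 4%. In males of 18% mothers it held upward for 5 (both Psmc4 probes, Psmd4, Psmd8 and Psmd14), against 3.3%, and downward for 2 (Psma4 and Psmb1), against 3.76%. These counts are of single probes, and some of the genes had another kept probe. In females of 9% mothers the other probe was at 0.19 for Psmd9 and 0.01 for Psmd11. For Psmd12 it was at 0.10 in females of 18% mothers. In males of 9% mothers it was at 0.10 for Psmb2 and -0.04 for Psmd13.

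**Figure D1:**
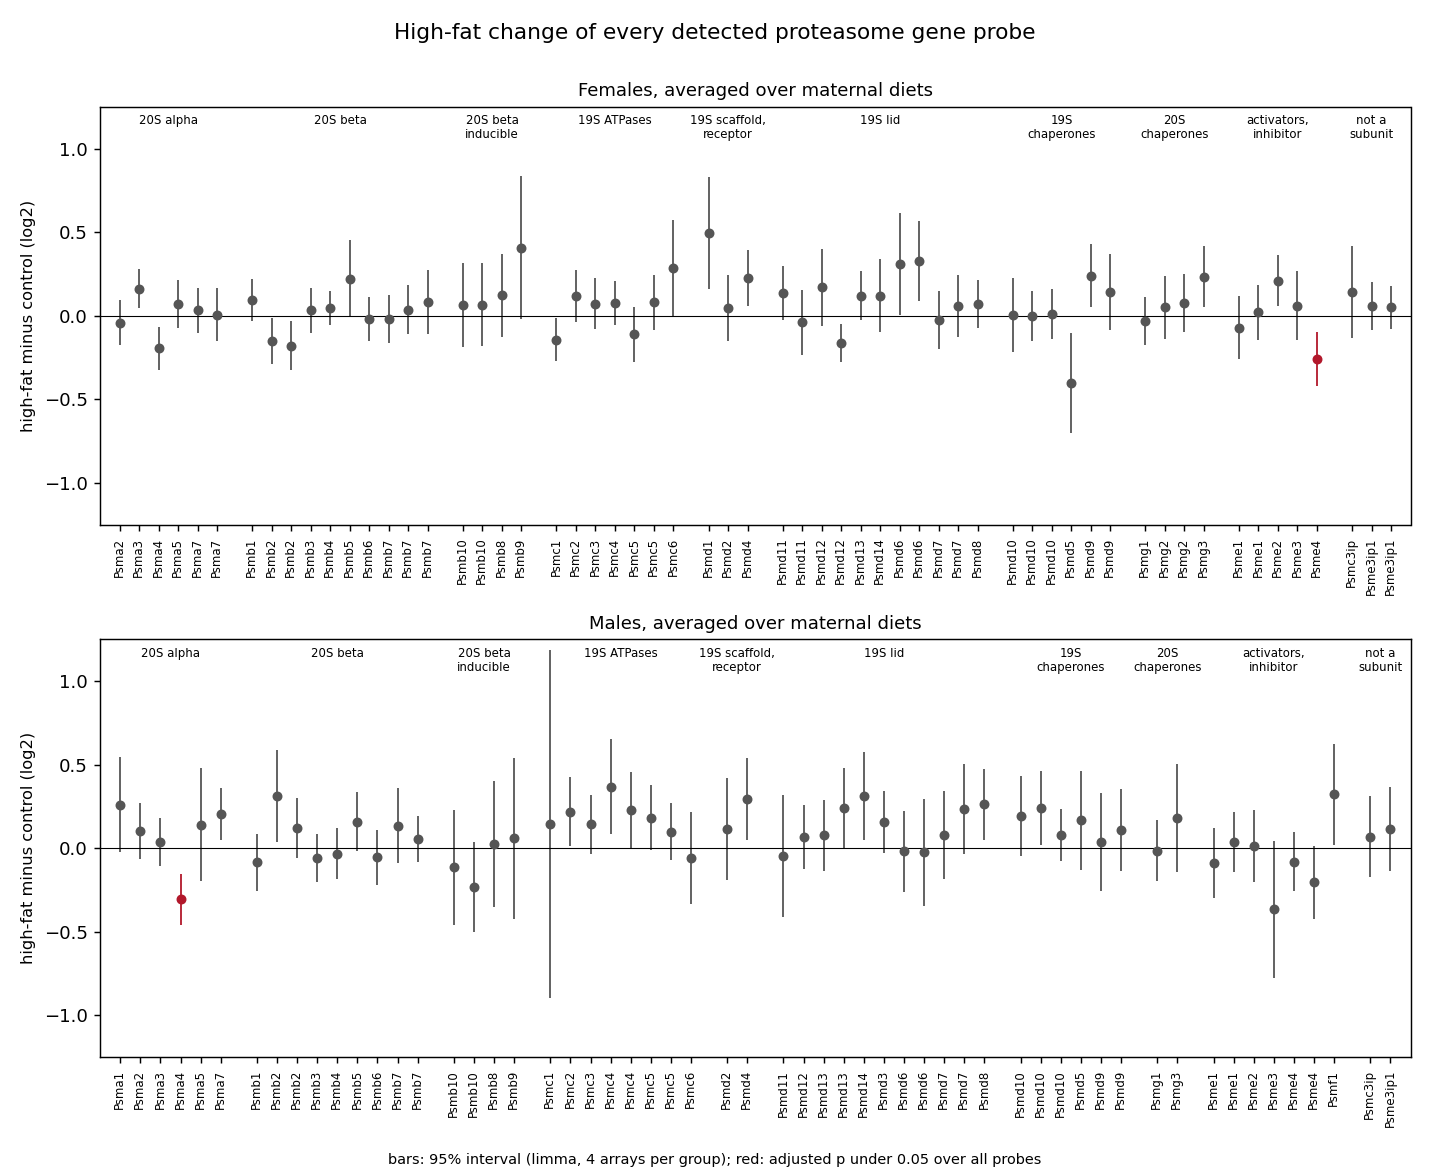
Change with the high-fat diet, averaged over maternal diets, of every proteasome probe (points, log2 difference of high-fat minus control diet with 95% interval), grouped along the axis by role in the complex, with females in the upper and males in the lower panel. The passing probes, in red, are Psme4 at -0.26 in females and Psma4 at -0.31 in males, and most other points lie slightly above 0.

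The high-fat comparisons after the 2 maternal diets share no array. The high-fat minus control difference was above 0 after both maternal diets for 31 of 59 female members, 52.5% against 32% of all probes, and below 0 after both for 11, 18.6% against 34.8%. In males it was above 0 after both for 26 of 57, 45.6% against 27.6%, and below 0 after both for 9, 15.8% against 29.5%. Across the sexes, 41 genes were measured on both array versions, each by its brightest probe. Of these 22 were above 0 in both sexes, 5 below 0 in both and 14 opposite in sign, which is 53.7%, 12.2% and 34.1%, against 30.8%, 33.9% and 35.3% of all 6941 genes on both versions. The difference was above 0 in all 4 high-fat comparisons for 11 genes, 26.8% against 14.4% of all genes: Psma3, Psmb5, Psmc2, Psmc3, Psmc5, Psmd14, Psmd4, Psmd7, Psmd8, Psme3ip1 and Psmg3. It was below 0 in all 4 for Psma4 and Psme4, 4.88% against 15.5%. The second female probe of Psmc5 was below 0 after both maternal diets, at -0.14 after 9% and -0.08 after 18%, and that of Psmd7 after 9%, at -0.12. None of these counts carries a test.

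In the alpha ring, which forms the gate of the core, Psma4 fell in males on the high-fat diet. Its probe read 11.30, 10.98, 11.19 and 11.17 in high-fat males of 9% mothers, against 11.67, 11.42, 11.34 and 11.44 in control-diet males of 9% mothers. It read 10.94, 11.12, 11.13 and 11.09 in high-fat males of 18% mothers, against 11.36, 11.28, 11.48 and 11.36 in control-diet males of 18% mothers. Within each maternal diet every high-fat array lay below every control array. The averaged change was -0.31 ± 0.07 (SE, 95% interval -0.46 to -0.15), so that the level fell by 19.1%, with adjusted p = 0.0355 in limma. The change was -0.31 ± 0.10 after 9% and -0.30 ± 0.10 after 18%, with adjusted p = 0.266 and 0.197. The call was lost without any 1 of 10 of the 16 arrays, with the change between -0.33 and -0.27 and adjusted p between 0.0298 and 0.0900 over all 16 such fits. The arrays that could be left out singly without losing it were high-fat 9% replicate 1, control 9% replicates 2 and 3, high-fat 18% replicates 2 and 3 and control 18% replicate 2. With mean raw intensity per array as a covariate the change was -0.31, with adjusted p = 0.0820, and with no detection filter, over 24613 probes, the call was lost at adjusted p = 0.0827.

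The same Psma4 probe was on the female array. It read 11.99, 11.90, 11.91 and 11.91 in high-fat females of 9% mothers, against 12.16, 12.02, 12.28 and 12.16 in control-diet females of 9% mothers. It read 11.83, 12.08, 11.78 and 11.76 in high-fat females of 18% mothers, against 12.18, 11.98, 11.94 and 12.01 in control-diet females of 18% mothers. The groups did not overlap after 9% and overlapped through high-fat replicate 2 after 18%. The averaged change was -0.19 ± 0.06 with limma adjusted p = 0.0549, which did not pass.

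None of the other alpha subunits passed in either sex. Psma3 in females read 13.08, 13.16, 13.18 and 13.05 in high-fat offspring of 9% mothers, against 13.01, 12.84, 12.98 and 12.77 in control-diet offspring of 9% mothers, without overlap, a change of 0.22 ± 0.08 (limma adjusted p = 0.123). Psma7 in males did not overlap after 9% either, at 0.18 ± 0.10 (limma adjusted p = 0.564). Averaged over maternal diets, the change was above 0 for 4 of 6 alpha-ring probes in females, with a median of 0.02, and for 5 of 6 in males, with a median of 0.12. Psma6 was not measured in either sex, since its probe was detected on 0 female and 2 male arrays.

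**Figure D2:**
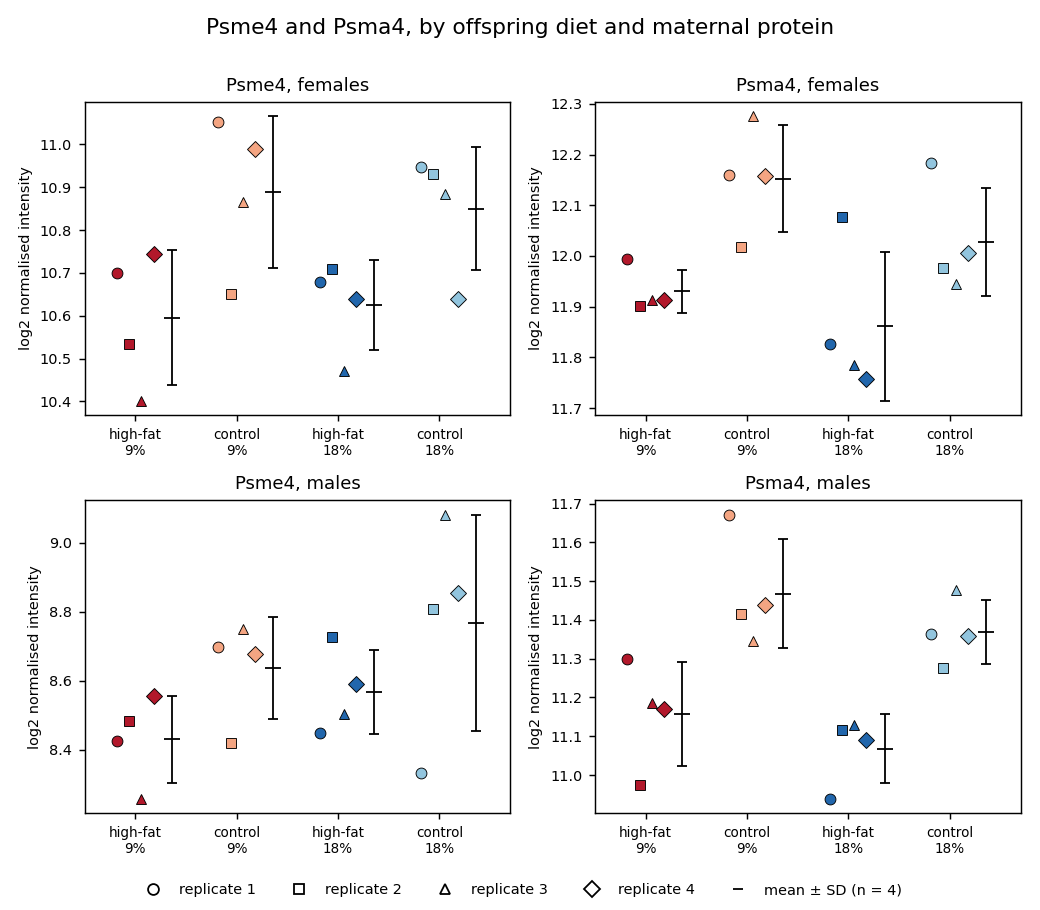
Log2 intensity of the Psme4 and Psma4 probes on each array (points, shape giving the replicate number) with group mean and SD (bars), females in the upper and males in the lower row. The high-fat group mean is the lower one in each pair, and the Psma4 male groups do not overlap within either maternal diet.

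Psme4, which encodes the activator PA200 that opens the core without ATP, fell in females on the high-fat diet. It read 10.70, 10.53, 10.40 and 10.75 in high-fat females of 9% mothers, against 11.05, 10.65, 10.87 and 10.99 in control-diet females of 9% mothers. It read 10.68, 10.71, 10.47 and 10.64 in high-fat females of 18% mothers, against 10.95, 10.93, 10.88 and 10.64 in control-diet females of 18% mothers. A single control array in each pair, replicate 2 after 9% and replicate 4 after 18%, lay among the high-fat arrays. The averaged change was -0.26 ± 0.08 (SE, 95% interval -0.42 to -0.10), so that the level fell by 16.5%, with adjusted p = 0.0426 in limma. The changes within the maternal diets, -0.29 ± 0.11 after 9% and -0.23 ± 0.11 after 18%, had adjusted p = 0.126 and 0.423. The call was lost without any 1 of 12 of the 16 arrays, with the change between -0.30 and -0.23 and adjusted p between 0.0229 and 0.0887 over all 16 such fits. The arrays that could be left out singly without losing it were high-fat 9% replicates 1 and 4, control 9% replicate 2 and control 18% replicate 4. Raw intensity ranged lower in the high-fat females, with overlap, and with it as a covariate the change was -0.18 with adjusted p = 0.428, a fit in which 13 of all 12561 probes passed. With no detection filter, over 25697 probes, the Psme4 call was lost at adjusted p = 0.0749.

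In males the Psme4 probe detected on all arrays was a different one. It read 8.43, 8.48, 8.26 and 8.55 in high-fat males of 9% mothers, against 8.70, 8.42, 8.75 and 8.68 in control-diet males of 9% mothers. It read 8.45, 8.73, 8.50 and 8.59 in high-fat males of 18% mothers, against 8.33, 8.81, 9.08 and 8.85 in control-diet males of 18% mothers. Both pairs overlapped, and the averaged change of -0.20 ± 0.10 had limma adjusted p = 0.346. The other male Psme4 probe lay close to background, detected on 5 arrays, and its female copy was detected on 0.

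No constitutive beta subunit passed in either sex. Psmb5, the chymotrypsin-like catalytic subunit, read 9.95, 9.68, 10.20 and 9.70 in high-fat females of 9% mothers, against 9.50, 9.52, 9.58 and 9.59 in control-diet females of 9% mothers, without overlap. In males of 9% mothers it read 9.88, 10.20, 9.94 and 10.20 with the high-fat diet, against 9.53, 9.82, 9.83 and 9.90 with the control diet, where high-fat replicate 1 lay below control replicate 4. The changes, 0.34 ± 0.15 in females and 0.29 ± 0.12 in males, had limma adjusted p = 0.213 and 0.387. After 18% they were 0.11 ± 0.15 and 0.03 ± 0.12. Psmb6, the caspase-like subunit, had averaged changes of -0.02 ± 0.06 in females and -0.06 ± 0.08 in males, and neither passed. Psmb7, the trypsin-like subunit, gave averaged changes of -0.02, 0.04 and 0.08 over 3 female probes and 0.14 and 0.06 over 2 male probes. Over the list, 6 of 10 female probes lay above 0 with a median of 0.03, and 5 of 9 male probes with a median of 0.06. In males of 9% mothers Psmb2 read 6.78, 7.25, 6.74 and 6.62 with the high-fat diet, against 6.46, 6.55, 6.14 and 6.53 with the control diet, without overlap, at 0.42 ± 0.18 (adjusted p = 0.421). Psmb2 had averaged changes of -0.15 and -0.18 in females and 0.31 and 0.12 in males, each over 2 probes, and none passed.

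Promoter windows of 300 bases, from 250 before to 50 after each gene's start in RefSeq (GRCm38.p6), were matched for 39 of 46 member genes, and those of Psmb1, Psmb2, Psmb7, Psmc3, Psmd3, Psmd7 and Psmg2 were not. Psmb5 and Psmb6 hold TGACNNNGC, a pattern of the antioxidant response element that NFE2L1 and its relatives bind, searched on both strands. It occurs in 6 of 39 member windows, 15.38% of these genes against 13.99% of 27025 genes. The stretches are shown because these are the constitutive catalytic subunits whose windows were matched, with the match in capitals, 47 and 9 bases before the start. Psmb5 lies at chr14:54618014-54618062 on the minus strand and Psmb6 at chr11:70525328-70525356 on the plus strand.
Psmb5: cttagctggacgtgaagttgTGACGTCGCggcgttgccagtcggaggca
Psmb6: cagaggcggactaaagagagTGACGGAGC

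The inducible subunit Psmb9, which takes the place of Psmb6, had the highest within-group SD of the female members, 0.469. In females of 18% mothers Psmb9 read 9.67, 11.18, 10.09 and 10.24 with the high-fat diet, against 9.30, 9.80, 9.27 and 9.40 with the control diet. High-fat replicate 2 stood far above the others, and replicate 1 lay below the highest control array. The change was 0.86 ± 0.29 with limma adjusted p = 0.279, and without that high-fat array it was 0.56 ± 0.25 with adjusted p = 0.425. In females of 9% mothers Psmb9 read 9.54, 10.00, 9.72 and 9.74 with the high-fat diet, against 9.47, 10.71, 9.52 and 9.46 with the control diet, where control replicate 2 was the highest. The change there was -0.04 ± 0.29.

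Psmb8, which takes the place of Psmb5, and Psmb10, which takes that of Psmb7, were also highest on replicate 2 in the high-fat 18% and control 9% groups. Psmb8 read 7.19, 7.83, 7.40 and 7.10 in high-fat females of 18% mothers, against 6.86, 6.99, 6.88 and 6.99 in control-diet females of 18% mothers. These groups did not overlap, and the change of 0.45 ± 0.17 had limma adjusted p = 0.311. It read 6.69, 7.01, 6.94 and 7.17 in high-fat females of 9% mothers, against 7.06, 7.59, 6.89 and 7.08 in control-diet females of 9% mothers, a change of -0.20 ± 0.17. Both Psmb10 probes were above 0 after 18%, at 0.37 and 0.31, and below 0 after 9%, at -0.24 and -0.17. The high-fat effect after 9% minus that after 18% was -0.89 ± 0.41 for Psmb9, -0.65 ± 0.23 for Psmb8 and -0.61 ± 0.24 and -0.48 ± 0.24 for Psmb10, and none passed in limma (adjusted p = 0.898 each).

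The list of 4 inducible probes had a median change of 0.41 after 18% and -0.19 after 9% in females. Without high-fat 18% replicate 2 the first was 0.26, and without control 9% replicate 2 the second was -0.08. Macrophage and Kupffer cell markers, 9 of 13 genes with 12 probes, had list medians of the same signs: after 18% all 12 were above 0 with the high-fat diet, with a median of 0.31, and after 9% 2 of 12 were, with a median of -0.15. Without high-fat 18% replicate 2 the first of these medians was 0.23, and without control 9% replicate 2 the second was 0.04. Their summed log2 level ranged over 12.9 to 13.6 in high-fat and 12.9 to 13.8 in control-diet females of 9% mothers, and over 13.0 to 13.6 in high-fat and 12.6 to 13.4 in control-diet females of 18% mothers. The order of single arrays was alike for both lists in some groups and not in others. Among control-diet females of 9% mothers the macrophage sum and the summed log2 level of the inducible subunits were both highest on replicate 2, at 13.8 and 12.05. Among high-fat females of 18% mothers the macrophage sum was highest on replicate 1, at 13.6, where the inducible sum was lowest in that group, at 11.41. The inducible sum of that group peaked on replicate 2, at 12.53. So did its sums for the antigen-processing genes, at 15.89, and the lymphocyte and NK cell markers, at 8.43. Its neutrophil sum peaked on replicate 1, at 10.39. In control-diet females of 9% mothers the antigen-processing and neutrophil sums were highest on replicate 2, at 15.90 and 10.2. The lymphocyte and NK cell sum there was highest on replicate 3, at 8.49. Tap1, a peptide transporter next to Psmb9, read 6.42, 7.55, 6.38 and 6.43 in high-fat females of 18% mothers, against 5.92, 6.35, 6.28 and 6.13 in control-diet females of 18% mothers. High-fat replicate 2 was the highest array of that group for Tap1 as well. Over the whole list of 16 antigen-processing probes, 8 were above 0 after 18% with a median of -0.01 and 2 after 9% with a median of -0.22. T-cell markers Cd8a and Cd4 were not among the kept probes and Cd3e was detected on 5 female arrays. Of 6 lymphocyte and NK cell probes, 4 were above 0 after 18% with a median of 0.08, and 0 after 9% with a median of -0.17. Of 4 neutrophil probes, 3 were above 0 after 18% with a median of 0.03, and 0 after 9% with a median of -0.28. The part of these cells in the Psmb9 values was not tested.

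In males the Psmb9 difference after 18% was close to 0. Psmb9 read 10.02, 9.05, 9.45 and 9.45 in high-fat males of 9% mothers, against 10.59, 8.71, 9.07 and 8.88 in control-diet males of 9% mothers. It read 9.20, 9.19, 9.12 and 9.44 in high-fat males of 18% mothers, against 9.79, 9.51, 8.99 and 8.91 in control-diet males of 18% mothers. Control 9% replicate 1 was the highest male array for Psmb9. The changes were 0.18 ± 0.32 after 9% and -0.06 ± 0.32 after 18%, and without that control array the first was 0.61 ± 0.23 with limma adjusted p = 0.358. Tap1 on it was 7.22. Of the 16 male arrays it was also the highest for the summed log2 level of the macrophage and Kupffer markers, at 12.6, the lymphocyte and NK markers, at 7.92, and the antigen-processing genes, at 14.5, and their part in the Psmb9 values was not tested. After 18% the male Psmb8 probe was at -0.03 ± 0.25 and the Psmb10 probes at -0.34 ± 0.18 and -0.20 ± 0.23, and none passed.

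**Figure D3:**
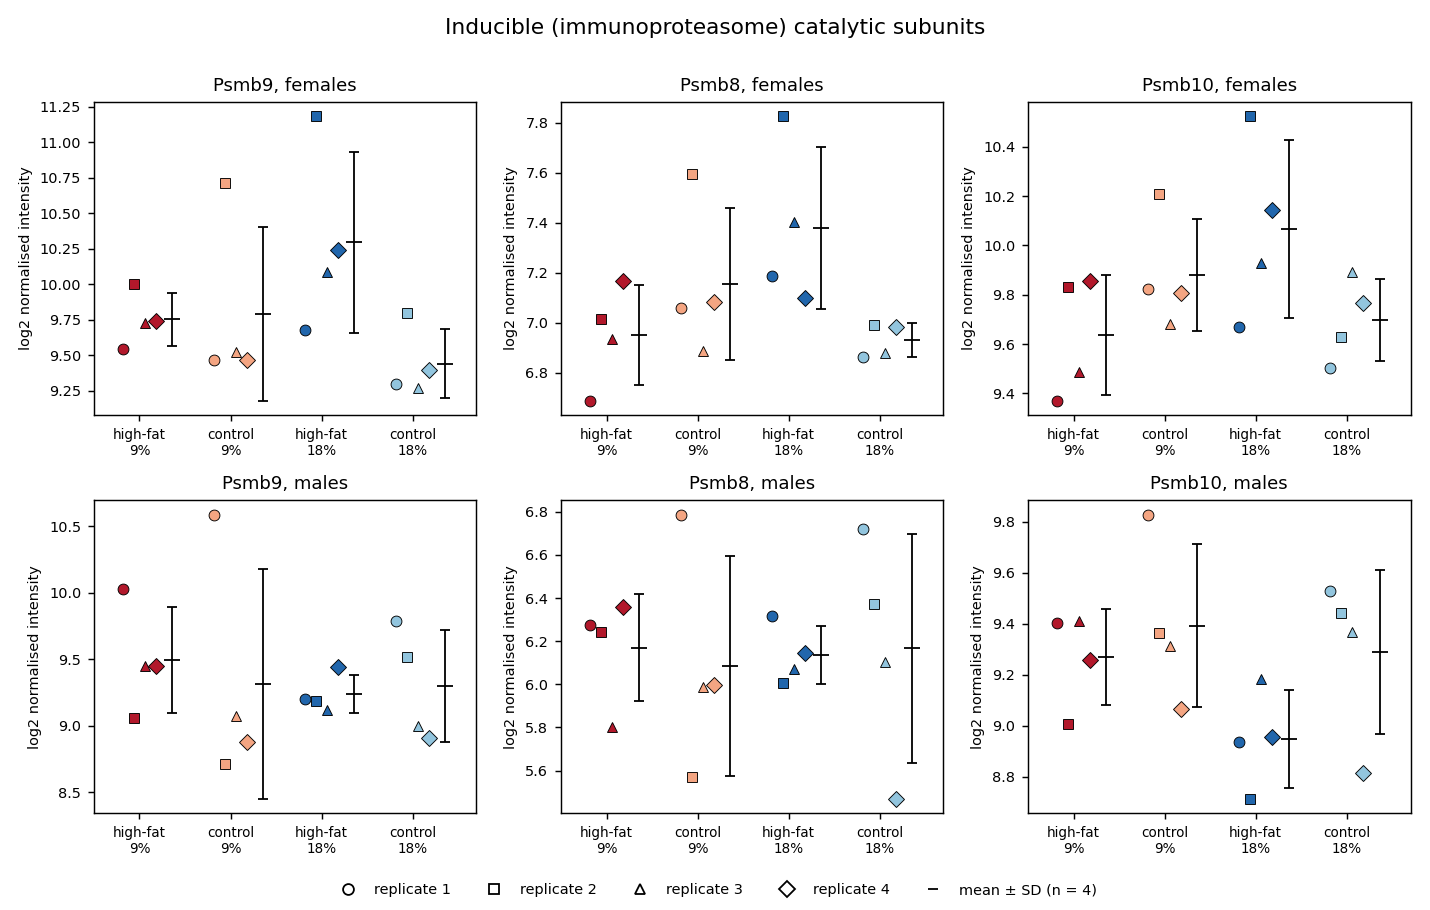
Log2 intensity of Psmb9, Psmb8 and Psmb10 on each array (points, shape giving the replicate number) with group mean and SD (bars), females in the upper and males in the lower row. High-fat 18% replicate 2 and control 9% replicate 2 stand highest in females, at 11.18 and 10.71 for Psmb9.

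Psmb9 and Tap1 start on opposite strands 225 bases apart, and the whole stretch between their starts is printed because both genes were highest on the same array among high-fat females of 18% mothers. It lies at chr17:34187331-34187555 and is written on the plus strand. Capitals mark CCAAT, searched on both strands, which 35.9% of matched member genes and 41.06% of all genes hold in the 300-base window.
Psmb9-Tap1: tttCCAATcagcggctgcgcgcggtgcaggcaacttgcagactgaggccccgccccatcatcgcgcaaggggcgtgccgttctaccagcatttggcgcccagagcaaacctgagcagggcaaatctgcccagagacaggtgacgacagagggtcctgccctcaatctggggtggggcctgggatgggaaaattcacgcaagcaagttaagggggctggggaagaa
Psmb8 has TTCNNNGAA, the pattern of the interferon-gamma activated site, 97 bases before its start, at chr17:34198078-34198126 on the plus strand, with the match in capitals. The pattern occurs in 3 of 39 member windows, 7.692% of these genes against 9.554% of all genes. GAAANN followed directly by GAAA, the pattern of the interferon-stimulated response element, was found in 4 of 39 windows, those of Psmb3, Psmd4, Psmd9 and Psme1, which is 10.26% against 3.993%. A match is a run of letters and was not tested as a binding site.
Psmb8: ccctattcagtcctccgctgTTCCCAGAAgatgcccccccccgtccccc

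In the regulatory base, Psmd1, the scaffold on which it assembles, had the smallest p of the female members after 9%. It read 8.85, 8.96, 9.51 and 8.07 in high-fat females of 9% mothers, against 8.08, 7.95, 8.32 and 8.02 in control-diet females of 9% mothers. High-fat replicate 4 lay among the controls and the other 3 lay above them. The change was 0.76 ± 0.22 with limma adjusted p = 0.0667, and without high-fat replicate 4 it was 1.02 with adjusted p = 0.00626. Replicate 4 was left out with its values in view. Leaving out the lowest high-fat array can only raise the change, so the second p-value is no separate support. It read 8.72, 8.26, 7.88 and 8.09 in high-fat females of 18% mothers, against 7.98, 8.02, 7.91 and 8.08 in control-diet females of 18% mothers, a change of 0.24 ± 0.22. Psmd1 had no kept probe in males.

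Psmd4, a receptor that binds ubiquitin chains, had a high-fat difference above 0 in each of the 4 comparisons and passed in none. It read 11.81, 11.78, 11.74 and 11.32 in high-fat females of 9% mothers, against 11.35, 11.52, 11.35 and 11.33 in control-diet females of 9% mothers. The change was 0.28 ± 0.11 with limma adjusted p = 0.165, and high-fat replicate 4 lay just below the lowest control array. Without that array the change was 0.39 with adjusted p = 0.0309. It was left out with its values in view, and leaving out the lowest high-fat array can only raise the change. In males of 18% mothers it read 11.80, 11.23, 11.28 and 11.42 with the high-fat diet, against 11.15, 10.75, 10.88 and 10.94 with the control diet, without overlap, a change of 0.50 ± 0.17 with adjusted p = 0.190.

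The ATPases of the base were above 0 in males of 18% mothers in 8 of 8 probes, with a median of 0.31, and in males of 9% mothers in 5 of 8, with a median of 0.02. Psmc2 read 7.61, 7.43, 7.10 and 7.40 in high-fat males of 18% mothers, against 7.18, 6.73, 6.92 and 7.04 in control-diet males of 18% mothers. The groups overlapped through high-fat replicate 3 and control replicate 1, and the change was 0.42 ± 0.14 with limma adjusted p = 0.193. Neither Psmc4 probe overlapped between the diets there, at 0.46 ± 0.15 and 0.39 ± 0.19 (adjusted p = 0.195 and 0.358). High-fat 18% replicate 1 was the highest male array for 19 of 57 members, 33.3% against 17.1% of all probes, and without it the ATPase median after 18% was 0.27 with 8 of 8 above 0. Without high-fat 18% replicate 2 that median was 0.13, also with 8 of 8 above 0. Averaged over maternal diets, the female ATPases had a median of 0.08 with 5 of 7 above 0. The male Psmc1 probe was detected on only 5 arrays, with 8.00 on high-fat 18% replicate 2 and 7.76 on control 9% replicate 3 and levels of 4.44 to 5.16 on the others.

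In the lid, which removes ubiquitin before degradation, Psmd3 read 11.74, 11.37, 11.62 and 11.50 in high-fat males of 18% mothers, against 11.37, 11.02, 11.07 and 11.13 in control-diet males of 18% mothers. High-fat replicate 2 and control replicate 1 met at 11.37, and the change of 0.41 ± 0.12 had limma adjusted p = 0.153. Psmd14, the deubiquitinase, read 9.54, 8.98, 8.82 and 8.96 in high-fat males of 18% mothers, against 8.75, 8.50, 8.52 and 8.78 in control-diet males of 18% mothers, without overlap, at 0.44 ± 0.18 (adjusted p = 0.274). In females the averaged difference of Psmd14 was 0.12 ± 0.10. Psmd12, a lid subunit, had the third smallest p in females of 18% mothers, at -0.19 ± 0.08 (adjusted p = 0.352), without overlap, while its other probe there was at 0.10 ± 0.15.

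Psmd6, another lid subunit, read 7.45, 7.48, 7.81 and 7.51 in high-fat females of 9% mothers, against 7.20, 6.69, 7.51 and 6.93 in control-diet females of 9% mothers. Control replicate 3 lay within the high-fat range. The change was 0.48 ± 0.16 with limma adjusted p = 0.0963, and its other probe gave 0.41 ± 0.20 with adjusted p = 0.254. In males both Psmd6 probes were near 0, at 0.01 and 0.00. The lid list had a median averaged change of 0.12 in females and 0.08 in males, with 8 of 11 probes above 0 in each sex.

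Among assembly chaperones, Psmg3, which helps form the alpha ring, read 8.23, 8.18, 8.20 and 7.90 in high-fat females of 9% mothers, against 7.80, 7.79, 7.66 and 7.84 in control-diet females of 9% mothers. The groups did not overlap, and the change of 0.35 ± 0.12 had limma adjusted p = 0.110. Psmd5, which chaperones the base, had a difference of the other sign in the same females, at -0.55 ± 0.20 with adjusted p = 0.122. It read 6.51, 5.53, 5.90 and 6.34 in high-fat females of 9% mothers, against 6.63, 6.54, 6.45 and 6.88 in control-diet females of 9% mothers, and overlapped through high-fat replicate 1. In males the averaged difference of Psmd5 was 0.17 ± 0.14. The other probes of the base chaperones, for Psmd9 and Psmd10, lay between -0.00 and 0.24 in females and between 0.04 and 0.24 in males.

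The PA28 activator subunits, which are interferon-responsive like the inducible beta subunits, had no call. The averaged difference of Psme2 was 0.21 ± 0.07 in females (limma adjusted p = 0.0783) and 0.01 ± 0.10 in males. Female Psme2 read 8.97, 9.00, 9.14 and 8.87 with the high-fat diet after 9%, against 8.71, 8.93, 8.65 and 8.85 with the control diet, and 8.96, 9.04, 8.72 and 8.96 after 18%, against 8.68, 8.79, 8.55 and 8.83. Both pairs overlapped. Psme1 lay at -0.07 and 0.02 over its female probes and at -0.09 and 0.04 over its male probes. In males the inhibitor Psmf1 was at 0.32 ± 0.14 and the nuclear activator Psme3 at -0.37 ± 0.19, and neither passed (adjusted p = 0.278 and 0.367).

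The maternal diet gave no call among the members. Comparing 9% with 18% mothers, limma called 0 of 59 members in high-fat females, 0 of 59 in control-diet females, 0 of 57 in high-fat males and 0 of 57 in control-diet males, and the interaction called 0 in each sex, each against 0% of all probes. At an unadjusted p under 0.05 there were 5 members in high-fat females, against 9.29% of all probes, 1 in control-diet females, against 6.19%, 4 in high-fat males, against 6.85%, and 2 in control-diet males, against 4.07%. For the interaction there were 3 in females, against 5.21%, and 6 in males, against 7.26%. Every 9% array lay above every 18% array for 2 members in high-fat females (Psmd2 and Psmd6), against 2.01% of all probes, and below for 0, against 2.09%. In control-diet females it lay above for 1 (Psmd7), against 1.59%, and below for 1 (Psmb4), against 1.62%. In high-fat males it lay above for 2 (Psmb1 and Psme1), against 1.92%, and below for 0, against 1.59%. In control-diet males it lay above for 5 (Psmb4, Psmc2, Psmd7, Psmd8 and Psmd10), against 1.63%, and below for 0, against 1.22%. These are single probes, and some of the genes had other kept probes. In control-diet males the other probes were at -0.07 for Psmd7 and at -0.01 and -0.17 for Psmd10. They were at 0.20 for Psmd6 in high-fat females, 0.12 for Psmd7 in control-diet females and 0.29 for Psme1 in high-fat males. The median 9% minus 18% difference was 0.05 and 0.03 in high-fat and control-diet females and 0.06 and 0.06 in high-fat and control-diet males.

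The smallest unadjusted p for the maternal diet belonged to the core subunit Psmb1 in high-fat males. It read 10.85, 10.77, 10.71 and 10.81 after 9%, against 10.21, 10.52, 10.52 and 10.32 after 18%, without overlap. The difference was 0.40 ± 0.11 with limma adjusted p = 0.708. Psme1 in the same males read 9.79, 9.75, 9.73 and 9.93 after 9%, against 9.32, 9.33, 9.54 and 9.47 after 18%, without overlap, at 0.38 ± 0.12 with adjusted p = 0.708. In high-fat females Psmd13, a lid subunit, read 10.89, 11.08, 10.90 and 10.88 after 9%, against 10.89, 10.59, 10.51 and 10.55 after 18%, at 0.30 ± 0.10 with adjusted p = 0.435. The array of 18% replicate 1 alone reached the 9% range there. Next by p in these high-fat females were Psmb10, at -0.46 ± 0.17, and Psmd1, at 0.61 ± 0.22 (adjusted p = 0.466 and 0.471), and in the high-fat males Psmd3, at -0.32 ± 0.12 (adjusted p = 0.708). With the control diet the smallest p-values in females were those of Psmd2, Psmd7 and Psmd9, at 0.32, 0.25 and -0.21, and in males those of Psmc2, Psmb4 and Psmc6, at 0.33, 0.24 and 0.31, all with adjusted p of at least 0.727. The male interactions with the smallest p were those of Psmd3, Psme1 and Psmb1, at -0.51 ± 0.17, 0.45 ± 0.17 and 0.38 ± 0.16, each with adjusted p = 0.649, and the female ones were those of Psmb8, Psmb10 and Psmb9 given above.

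Ordered by group mean, the members did not spread evenly. High-fat offspring of 9% mothers had the highest mean of the 4 groups for 31 of 59 female members, 52.5% against 29.1% of all probes, and for 28 of 57 male members, 49.1% against 22.3%. Control-diet offspring of 18% mothers had the lowest mean for 24 female members, 40.7% against 22.7%, and for 24 male members, 42.1% against 23.9%. These counts are a description and carry no test. The median within-group SD was 0.149 for female members against 0.203 for all probes, and 0.218 against 0.227 in males. Single arrays stood out in counts of this kind too. High-fat 9% replicate 1 was the highest female array for 11 of 59 members, 18.6% against 7.56% of all probes. High-fat 9% replicate 3 and high-fat 18% replicate 2 were each the highest for 10, 16.9%, against 7.79% and 4.43% of all probes. Control 18% replicate 3 was the lowest for 10, 16.9% against 5.32%.

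**Figure D4:**
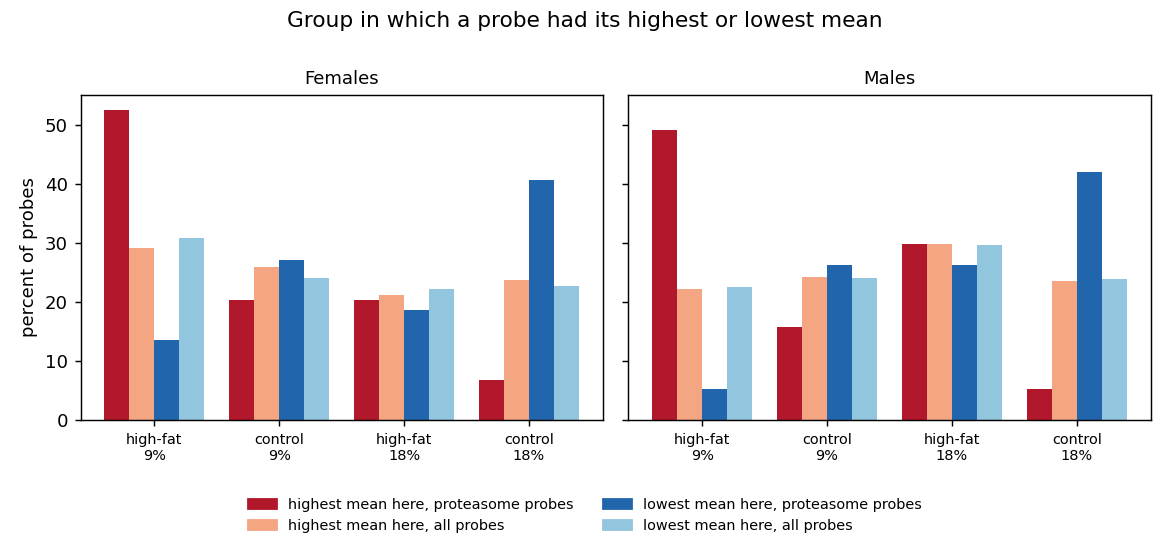
Percentage of probes whose group mean was the highest or the lowest of the 4 groups of a sex, for proteasome members and for all kept probes. The high-fat 9% group holds the highest mean for 52.5% of female and 49.1% of male members, against 29.1% and 22.3% of all probes.

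Whether the high-fat effect differed between males and females was tested over 6941 genes on both versions, 41 of them members. Each sex was measured on its own array version, so sex and version cannot be told apart in these differences, and 24 of the 41 members and 4686 of the 6941 genes had the same probe on both. Limma called 0 of 41 after 9%, 0 of 41 after 18% and 0 of 41 averaged over maternal diets, against 0%, 0% and 0.0432% of all genes. The smallest unadjusted p averaged over maternal diets belonged to Psmd5, with a male minus female difference of 0.57 ± 0.21 (adjusted p = 0.324). Psmb1 after 18%, at -0.36 ± 0.13 (adjusted p = 0.366), and Psmb2 averaged over maternal diets, at 0.27 ± 0.10 (adjusted p = 0.348), came next.

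Genes that work with the proteasome outside the naming rule were described from lists. All values are high-fat minus control, averaged over maternal diets. Of all kept female probes 4.42% rose and 4.43% fell, and of all kept male probes 1.22% rose and 0.764% fell. An unadjusted limma p under 0.05 was reached by 25.6% of all kept female and 16% of all kept male probes. The core maturation factor Pomp was at 0.12 ± 0.07 in females and 0.23 ± 0.08 in males (limma adjusted p = 0.319 and 0.154), and Nfe2l1 at 0.13 ± 0.09 and 0.04. The list of NFE2L1 control genes held 14 female probes, of which 3 rose: 2 of 4 probes of Keap1, the adaptor that targets the related factor NRF2 for degradation, at 0.35 and 0.23 (adjusted p = 0.0130 and 0.0267), and Mafg, a partner of these factors, at 0.33 (adjusted p = 0.0375). Of 15 male probes 1 fell, Bach1, a repressor at the same DNA element, at -0.74 ± 0.17 (adjusted p = 0.0285). Of 13 probes for proteasome partners in females 1 of 3 probes of Ubqln1, a shuttle for ubiquitinated proteins, fell at -0.55 (adjusted p = 0.0189), and in males 0 of 12 passed, with 1 at an unadjusted p under 0.05. Of 16 antigen-processing probes in females, 1 of 2 for the class I heavy chain H2-K1 rose at 0.89 (adjusted p = 0.00256) and 1 of 4 for the interferon factor Irf1 fell at -0.47 (adjusted p = 0.0348), and in males 0 of 11 passed, with 0 at an unadjusted p under 0.05. The list medians were 0.01, 0.11 and -0.11 in females and 0.01, 0.04 and -0.12 in males, for NFE2L1 control, partners and antigen processing. Among cell type markers, the hepatocyte genes Cps1, by both of its probes, and Hnf4a fell in females, at -0.52, -0.49 and -0.32 (adjusted p = 0.0352, 0.0183 and 0.0309), while over the list of 12 hepatocyte probes 4 were above 0 with a median of -0.04. Of 9 stellate cell probes in females 1 fell, for Reln, at -0.34 (adjusted p = 0.0388), and no macrophage probe passed in either sex, with 0 at an unadjusted p under 0.05.

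Probes of one gene did not always give one answer. For the averaged high-fat change 9 of 18 pairs of probes for the same gene shared a sign in females and 13 of 14 in males. Transcripts of pseudogenes and near-identical copies cannot be told apart by a probe sequence that they share, and the symbols are those of the platform annotation. The probes left out by the detection rule were, in females, 1 probe each of Psma1, Psma3, Psma6, Psmb2, Psmd11, Psmd5 and Psme4, detected on 0 arrays, and 1 of Psmd2, detected on 1. In males they were 1 probe each of Psmg4, Psma1, Psma3, Psmd11 and Psmd5, on 0 arrays, Psmb11 on 1 and Psma6 on 2. The kept probes nearest the limit were Psmc1 and Psme4, on 5 arrays each, and Psmc3ip, on 7, in males, and Psmc3ip, on 12, in females.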

How the data were processed

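Liver RNA labelled with biotin was hybridised to Illumina bead arrays, a different version for each sex. The authors' deposited intensity values had background subtracted but no normalisation across arrays, and the file headers also give a deposited detection p-value for every probe and array. The submitters' processing notes name BeadStudio, and its version is not given in the sources used here. Columns belonging to no sample numbered 0. The female annotation gave 1 gene symbol to 23978 probes, several to 0 and none to 1719; the male annotation 1 to 20984, several to 1 and none to 3628.

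Log2 intensities came from neqc (limma 3.58.1, R 4.3.3) with an offset of 16 and negative controls inferred from detection. The detection rule (p under 0.05 on 4 or more of 16 arrays) was applied to all probes, and different probes of a gene stayed separate. Each sex was fitted with lmFit and eBayes (trend) over its 4 groups, two-sided, with a Benjamini-Hochberg threshold of 0.05 over all kept probes. The sex difference used each gene's brightest probe on each version. Python 3.11.15 with matplotlib 3.10.9 made the figures, and the fit was tested on simulated data.

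The members and lists were chosen with earlier results of these data known. Named were members past the threshold, or else the 3 smallest p-values of a comparison; always the catalytic, inducible and PA28 subunits, Psmd4 and Psmd14; and, of other lists, up to 4 members past the threshold, with Nfe2l1, Pomp and Adrm1, which had no kept probe. Members named because their groups did not overlap or for all 4 comparisons, a female member shown beside a male call and the reverse, Psme3, Psmf1, Tap1 and the printed promoters were picked with their values in view. For the inducible subunits, the list medians, Psmd1 and Psmd4, the single arrays left out were also picked with their values in view. Alternatives covered the background correction, the deposited normalised table, the detection rule, 1 probe per gene, raw intensity as a covariate, the replicate block and leaving out each array.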

Additional observations from a re-analysis of the deposited data

Results flagged for a closer look

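In 15 of 172 sets of 4 arrays of a named probe, 1 array stood apart from the other 3 by Dixon's test, a separation that chance gives in about 1 in 20 such sets. In females, Psmd4 was lowest on high-fat 9% replicate 4, at 11.32 against a nearest value of 11.74, and highest on control 9% replicate 2, at 11.52 against 11.35. Psmg3 was lowest on the same high-fat replicate 4, at 7.90 against 8.18. High-fat 9% replicate 3 was highest for Psmd6, at 7.81 against 7.51, and for Psmd12, at 10.31 against 10.14. High-fat 9% replicate 2 was highest for Psmd13, at 11.08 against 10.90. Control 9% replicate 2 was highest for Psmb9, at 10.71 against 9.52. Control 9% replicate 1 was lowest for 2 probes of Psmb7, at 10.88 against 11.18 and 11.42 against 11.67. High-fat 18% replicate 1 was highest for Psmb5, at 10.02 against 9.50, for Psmb7, at 11.17 against 11.06, and for Psmd9, at 7.79 against 7.58. In males, Psmb7 was lowest on high-fat 9% replicate 3, at 10.96 against 11.23. Psmb6 was highest on control 9% replicate 2, at 12.59 against 12.17, and lowest on control 18% replicate 4, at 12.02 against 12.12.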

How the results depend on the processing

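The counts of members called for the maternal diet, the interaction, the high-fat diet after 18% in females and after either maternal diet in males, and the sex differences stayed at 0 under every alternative run. For the high-fat diet after 9% in females the count was 1 with no detection filter, a Psme4 probe detected on 0 arrays, and 0 to 2 when single arrays were left out. It was 1 without control 9% replicate 3 (Psmd6) or high-fat 18% replicate 1 (Psmd1) and 2 without high-fat 9% replicate 4 (Psmd1 and Psmd4). For the averaged female comparison, with 1 call, it was 2 over probes detected on all 16 arrays (Psma4 and Psme4), 0 with raw intensity as a covariate, and 0 to 3 when single arrays were left out, with 3 (Psmd1, Psmd4 and Psme4) without high-fat 9% replicate 4. With no detection filter it was 1, for Psmd2 and not Psme4 (adjusted p = 0.0749). Psmd2 has a probe detected on 1 female array that only this setting includes, and its kept probe was not called in the main fit. For the averaged male comparison, with 1 call, it was 0 with no detection filter (Psma4 at adjusted p = 0.0827), also 0 once raw intensity was a covariate, where 106 of all probes passed, and 0 to 1 when single arrays were left out. Of 32 single-probe results only the averaged Psme4 in females and Psma4 in males were calls, so only these could lose one. Their calls were lost in 27 recalculations, among them 12 for Psme4 and 10 for Psma4 without single arrays. Of 730 recalculations of all 32, 700 kept direction and side of the threshold, 3 gained a call and 0 changed sign. Most of the 700 concern probes with no call to lose. In 276 recalculations of 12 medians all 276 stayed within the spread between arrays. This spread was about as wide as the averaged high-fat medians. A median could thus come close to 0 and still count, and the count does not show stability. The cause of the shifts in the calls was not tested.

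With the replicate number as a block the averaged count was 3 in females (Psmb9 and Psmc6 rose, Psme4 fell) and 0 in males, where Psma4 had adjusted p = 0.0512. Same-numbered arrays had a median correlation of deviations of 0.0588 in females and 0.0646 in males, up to 0.331 and 0.479. For different numbers the medians were -0.0169 and -0.0144. Of the same-numbered pairs 10 of 24 lay over 0.1 in each sex. Whether same-numbered arrays share a batch was not tested. Slide as a block was not run, because the files used give none.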
